A study of Mus musculus with 19 samples.

Results

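Inhibition of miR-210 was compared with a scrambled control in ischemic calf muscle. Of the 19 bead arrays in the series, 8 enter the comparison. They are the 4 arrays titled anti-miR-210 and ischemic and the 4 titled scramble and ischemic. The mice were CD1, an outbred stock, and were 2 months old. Both groups received a tail vein injection of a locked nucleic acid (LNA) oligonucleotide at 12 mg/kg in 200 µl of saline. The oligonucleotide was directed at miR-210 in one group and carried a scrambled sequence in the other. The left femoral artery was dissected 2 days after the injection, and the gastrocnemius, the large calf muscle, was taken 3 days after surgery. Both groups therefore share the injection and the surgery. The 4 anti-miR-210 and 4 scramble arrays of non-ischemic muscle, together with 3 arrays of untreated mice, entered the fit to estimate the spread. The labels do not say whether the arrays of a group came from separate mice or whether ischemic and non-ischemic muscle came from the same mice. The p-values are therefore set by how much these arrays vary among themselves, and part of that spread may be technical. Each p-value and standard error rests on a spread pooled over all 19 arrays. Both are too small for a gene that varies more among the ischemic arrays than among the others.

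miR-210 is a microRNA that cells make more of when oxygen is short, under control of hypoxia-inducible factor. A microRNA pairs with messenger RNAs through its seed and lowers their stability or translation, and published targets of miR-210 include the iron-sulfur scaffold Iscu, respiratory chain factors such as Sdhd and Cox10, and the receptor ligand Efna3. In skeletal muscle, loss of blood flow kills fibres, draws in neutrophils and then macrophages, and starts regeneration.

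Both oligonucleotides and the mature microRNA are shown because the pairing between them defines the treatment. The mature sequence is RefSeq's on GRCm38.p6 (chr7:141221407-141221428, minus strand), with its seed, bases 2 to 8, in capitals. The capitals in the inhibitor mark its last 7 bases, which are complementary to that seed.
mmu-miR-210-3p: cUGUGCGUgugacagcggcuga
anti-miR-210 LNA: gctgtcacACGCACA
scrambled LNA: cgtctagccacctag
All 15 bases of the inhibitor pair with bases 2 to 16 of the microRNA. The longest run of the scrambled oligonucleotide that pairs with it is 4 bases. Among 1679 mature mouse microRNAs in the RefSeq table, only 1, miR-210-3p itself, has this seed. No probe on the array is named for miR-210, so its inhibition was not checked here.

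The 2 groups differed in brightness before any gene was compared. The mean deposited intensity over all probes was 193.3, 264.8, 259.2 and 200.7 on anti-miR-210 arrays 1 to 4, against 171.7, 183.9, 136.2 and 123.6 on the scramble arrays. Every anti-miR-210 array was brighter than every scramble array, and scramble arrays 3 and 4 were the dimmest. The group means were 229 ± 37.7 for anti-miR-210 and 154 ± 28.6 for scramble (SD, n = 4 each). This is a description, since the dim scramble arrays were known when the comparison was chosen. The share of probes detected ranged from 37.0 to 42.3% on anti-miR-210 arrays and from 32.1 to 37.9% on scramble arrays, which overlapped.

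The muscle creatine kinase Ckm was at a log2 level of 13.02 to 13.62 on anti-miR-210 arrays and 12.16 to 12.97 on scramble arrays, and all 6 muscle markers were detected on all 8 arrays. Of the liver markers, Fga was detected on no ischemic array and Apoa1 on 1. On the first principal component of the 8 arrays (40.9% of the variance), anti-miR-210 arrays 1 to 4 scored 20.1, 26.4, 46.7 and -20, against -5.4, 0.9, -36.2 and -32.4 for scramble. Anti-miR-210 array 4 thus lay among the scramble arrays. Whether its label is right was not tested, and each group difference below includes it.

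Among 14646 genes tested with limma (log2 levels after background correction and quantile normalization, Benjamini-Hochberg adjusted p under 0.05), 159 were called, 1.09% of all. Of these, 35 were higher with anti-miR-210 (0.239%) and 124 were lower (0.847%). The higher genes had a median log2 change of 0.79 and included 7 that changed at least 2-fold. The lower genes had a median of -0.97 and included 57 that changed at least 2-fold. The median of all genes was 0.01. Arrays of the groups did not overlap for 27 of the 35 higher and 83 of the 124 lower genes, where 2.5% and 2.87% of all genes were apart in these directions. Of the lower genes, 44 (35.5%) carried a name that is not a current gene symbol, against 3 (8.57%) of the higher genes and 16.3% of all genes tested. Other kept probes existed for 16 of the higher and 33 of the lower genes. All of these probes had the same sign for 11 of the 16 higher genes but for only 11 of the 33 lower genes.

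The called genes varied with brightness within the ischemic groups as well as between them. The 124 lower genes averaged 6.7, 6.42, 6.27 and 7.1 on anti-miR-210 arrays 1 to 4, against 7.7, 7.43, 7.94 and 7.93 on the scramble arrays. The 35 higher genes averaged 7.24, 7.34, 7.35 and 6.87 on the anti-miR-210 arrays, against 6.39, 6.51, 6.24 and 6.3 on the scramble arrays. These averages separate the groups because the genes were chosen for it. Within the groups of ischemic arrays, 113 of the 124 lower genes (91.1%) had a level that went down as log2 brightness went up, against 50.1% of all genes. The same slope was negative for 6 of the 35 higher genes. On non-ischemic arrays the slope was negative for 45.2% of the lower and 62.9% of the higher genes, against 46.9% of all genes, so that the higher genes had the opposite tendency there. No anti-miR-210 array was as dim as any scramble array, so brightness and oligonucleotide cannot be told apart between the groups.

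**Figure D1:**
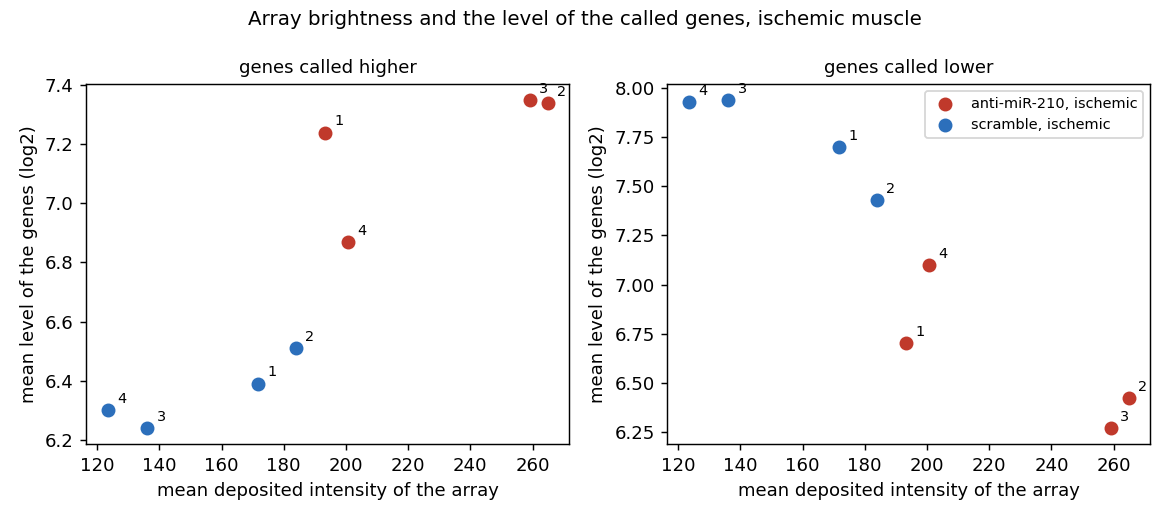
Mean log2 level of the called genes (vertical axis) against the mean deposited intensity of the array (horizontal axis), for genes called higher (left) and lower (right) with anti-miR-210. Each point is 1 of the 8 ischemic arrays with its replicate number. Scramble arrays 3 and 4, at 136.2 and 123.6, are the dimmest, and the genes called lower average 7.94 and 7.93 there.

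The number of calls changed when single arrays were left out and in the settings that allow for brightness. Brightness did not overlap between the groups, and how much of any drop in calls belongs to it was not tested. Leaving out anti-miR-210 array 1, 2, 3 or 4 left 159, 14, 20 or 1182 calls. Leaving out scramble array 1, 2, 3 or 4 left 64, 325, 25 or 22. Of the 159 genes, 10 were called in all 8 of these refits, and all 10 were lower with anti-miR-210. They include Card14, Sftpd, Prkg1 and Ccdc88b. A fit of the 8 ischemic arrays alone called 1 gene, Card14. That fit takes its spread from the ischemic arrays only. The other calls among the 159 thus depend on the spread shared with non-ischemic and untreated arrays. Prf1, for example, had an unadjusted limma p of 0.000127 with all arrays and 0.00678 with these 8. With log2 brightness as a covariate over all arrays, limma again called only Card14, and over the 8 ischemic arrays it called 0 genes (487 past an unadjusted p of 0.05, 3.33%). Between the 4 arrays nearest in brightness (anti-miR-210 arrays 1 and 4 against scramble arrays 1 and 2), 9 genes were called, of which 4 were among the 159. That setting does not change brightness alone. It has fewer arrays and gives more weight to anti-miR-210 array 4, which lay among the scramble arrays on the first principal component. All 159 kept their sign in the 3 brightness settings, which are the 2 covariate fits and the arrays nearest in brightness. The median of the higher genes was 0.67, 0.56 and 0.57 there, and that of the lower genes was -0.72, -0.47 and -0.59.

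Genes differed in how much of their change remained. Taking the smallest change over the 3 brightness settings, 10 of the 35 higher genes and 20 of the 124 lower genes kept at least 80% of their size, while 11 and 62 kept less than 50%. These thresholds were chosen after the values were seen. Of those 10 and 20 genes, 7 and 17 were also past an unadjusted limma p of 0.05 in all 3 settings. Genes that kept at least 80% include Card14, Prkg1, Serpinb1a, S100a13 and Hspe1 among the lower and Napsa, Marveld1, Irf9, Arhgap25 and Rnaseh2c among the higher. Of the 8 refits without 1 array, Card14 and Prkg1 were called in 8, Napsa in 7, S100a13 in 5 and Serpinb1a in 4. Rnaseh2c was called in 3 of them, Hspe1, Marveld1 and Irf9 in 2, and Arhgap25 in 1. Genes under 50% include Prf1, Cxcl2, Uqcrb, Golga2 and Nmd3 among the lower and C1qa and Abcc9 among the higher.

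**Figure D2:**
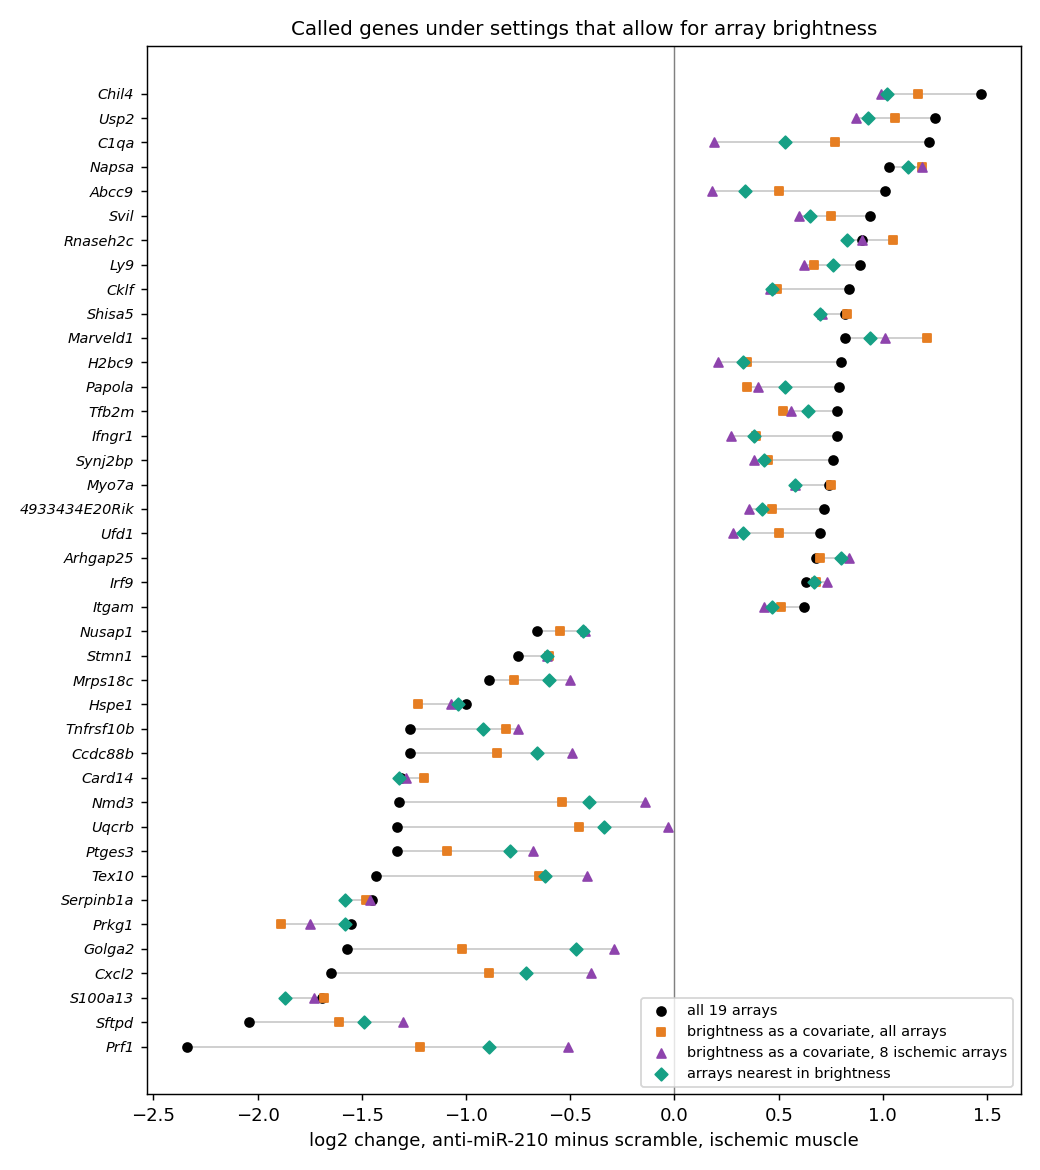
Log2 change of 40 called genes, anti-miR-210 minus scramble in ischemic muscle (horizontal axis), in the fit of all 19 arrays (black circles), with brightness as a covariate over all arrays (orange squares) or the 8 ischemic arrays (purple triangles), and between the arrays nearest in brightness (green diamonds). Card14 stays between -1.32 and -1.2, whereas Uqcrb ranges from -1.33 to -0.03.

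Card14 had the smallest adjusted p. It encodes a scaffold protein that activates NF-kB, best known from keratinocytes. Its log2 level was 4.78, 4.73, 4.94 and 4.99 on anti-miR-210 arrays, against 6.40, 6.01, 6.09 and 6.19 on scramble arrays. The groups were far apart relative to the spread within each, and the anti-miR-210 arrays were low but detected. Card14 fell by 1.31 ± 0.12 on the log2 scale (SE; 2.49-fold lower; limma adjusted p = 3.53e-05). A second kept probe had the same sign. In non-ischemic muscle Card14 averaged 4.32 with anti-miR-210 and 4.33 with scramble, near the detection floor of 4.40 to 4.65 on the ischemic arrays, and the difference between the 2 changes was itself called (-1.31, adjusted p = 0.00743). The change was -1.2, -1.29 and -1.32 in the 3 brightness settings, with adjusted p values of 0.0352, 1 and 0.0115.

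Sftpd encodes surfactant protein D, a secreted collectin of innate immunity known from lung. Its level was 4.82, 4.92, 4.29 and 5.80 on anti-miR-210 arrays, against 7.20, 6.39, 7.03 and 7.35 on scramble arrays. All anti-miR-210 arrays were below all scramble arrays, and 1 of them was under the detection threshold. Sftpd fell by 2.04 ± 0.24 (4.1-fold lower; limma adjusted p = 0.000651). In non-ischemic muscle Sftpd averaged 4.37 with anti-miR-210 and 4.19 with scramble, near the detection floor. The change in ischemic muscle was -1.61, -1.3 and -1.49 in the 3 brightness settings, where it was not called. It was -1.84 without scramble arrays 3 and 4 (adjusted p = 0.0215).

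Prkg1 encodes the cGMP-dependent protein kinase that carries nitric oxide signals in vascular smooth muscle. It was at 7.17, 6.74, 6.58 and 6.87 on anti-miR-210 arrays, against 8.29, 8.90, 8.66 and 7.69 on scramble arrays. The groups did not overlap, and scramble array 4, the dimmest, was the lowest of its group. Prkg1 fell by 1.55 ± 0.22 (2.92-fold lower; limma adjusted p = 0.00353). Non-ischemic muscle averaged 9.18 with anti-miR-210 and 9.24 with scramble, above both ischemic groups. Prkg1 was called between the arrays nearest in brightness (-1.58, adjusted p = 0.0495) and without the dimmest pair (-1.76, adjusted p = 0.00424), but not with brightness as a covariate (-1.89 over all arrays and -1.75 over the ischemic arrays).

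**Figure D3:**
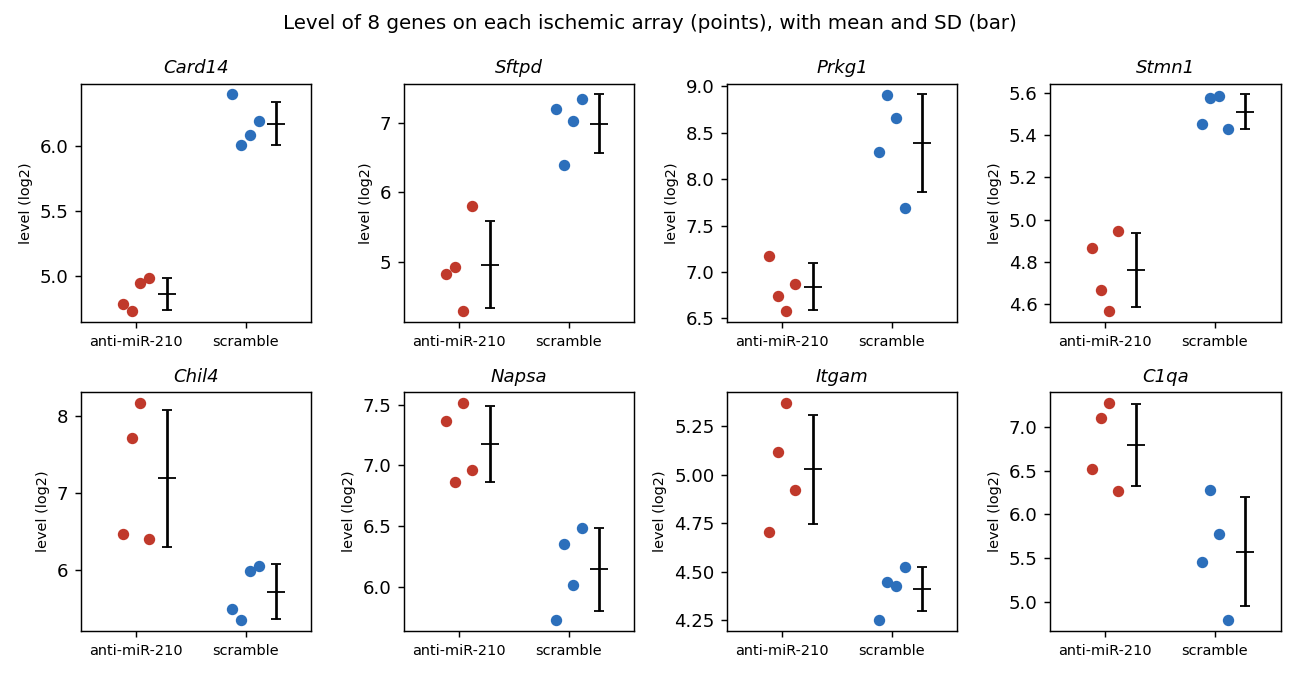
Log2 level (vertical axes) of 8 genes on each ischemic array (points, replicates 1 to 4 from left to right) with the mean and SD of each group (bars), anti-miR-210 at the left and scramble at the right of each panel. The groups of all genes but C1qa are apart, and the gap is widest relative to the spread for Card14.

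S100a13, a calcium-binding protein that takes part in the release of FGF1, was at 6.82, 7.17, 7.62 and 7.35 on anti-miR-210 arrays, against 9.38, 8.52, 8.27 and 9.51 on scramble arrays (log2 change -1.69 ± 0.31, limma adjusted p = 0.0217). Serpinb1a, an inhibitor of neutrophil serine proteases, was at 7.46, 7.08, 6.50 and 6.89 with anti-miR-210, against 9.41, 8.09, 7.70 and 8.52 with scramble (-1.45 ± 0.29, adjusted p = 0.0337). Both genes had groups that did not overlap, and their changes were of about the same size in the 3 brightness settings (-1.87 to -1.68 for S100a13, -1.58 to -1.46 for Serpinb1a), though not called there. Hspe1, the mitochondrial co-chaperonin, fell by 1.00 ± 0.23 (adjusted p = 0.0419) and ranged from -1.23 to -1.04 in those settings. Ptges3, the Hsp90 co-chaperone p23, was at 7.23, 6.27, 5.90 and 6.80 with anti-miR-210, against 7.66, 7.95, 7.98 and 7.95 with scramble (-1.33 ± 0.24, adjusted p = 0.0192). Its change was -1.09 to -0.68 in the brightness settings.

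Tnfrsf10b, the mouse receptor for the death ligand TRAIL, was at 5.14, 5.04, 5.55 and 5.47 on anti-miR-210 arrays, against 6.31, 6.14, 6.76 and 7.09 on scramble arrays (-1.27 ± 0.24, limma adjusted p = 0.0232). The groups did not overlap, but only 1 of its 3 other kept probes had the same sign. Its change was -0.92 to -0.75 in the brightness settings. Ccdc88b fell by 1.27 ± 0.20 (adjusted p = 0.00714), Tex10 by 1.43 ± 0.25 (adjusted p = 0.0154) and Nmd3, an adaptor for export of the large ribosomal subunit, by 1.32 ± 0.28 (adjusted p = 0.0375). Golga2, a Golgi matrix protein, fell by 1.57 ± 0.36 (adjusted p = 0.0442), and 3 of its 4 other kept probes had the same sign. With brightness as a covariate over the ischemic arrays these 4 changes were -0.49, -0.42, -0.14 and -0.29. Tex10 had 3 kept probes, and only 1 besides the probe read had the same sign.

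Among the genes that rose, Chil4, a chitinase-like protein of alternatively activated macrophages, had the largest change of those whose groups did not overlap. It was at 6.47, 7.72, 8.17 and 6.41 on anti-miR-210 arrays, against 5.49, 5.35, 5.99 and 6.06 on scramble arrays. The bright anti-miR-210 arrays 2 and 3 were the highest, and arrays 1 and 4 lay just above scramble. Chil4 rose by 1.47 ± 0.29 (2.78-fold higher; limma adjusted p = 0.0264) and was called between the arrays nearest in brightness (1.02, adjusted p = 0.0115). Usp2, a ubiquitin-specific protease with a daily rhythm, was at 9.26, 9.06, 9.50 and 8.25 with anti-miR-210, against 8.09, 7.56, 8.04 and 7.37 with scramble (1.25 ± 0.25, adjusted p = 0.0319), and the change was 0.87 to 1.06 in the brightness settings. Its level in ischemic muscle of both groups was below that in non-ischemic muscle, which averaged 11.22 with anti-miR-210 and 10.90 with scramble.

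Napsa, an aspartic protease known from lung and kidney, was at 7.36, 6.86, 7.51 and 6.96 on anti-miR-210 arrays, against 5.72, 6.35, 6.01 and 6.49 on scramble arrays. The groups did not overlap, both other kept probes had the same sign, and the change of 1.03 ± 0.18 (limma adjusted p = 0.0132) was 1.12 to 1.19 in the brightness settings. Marveld1 rose by 0.82 ± 0.17 (adjusted p = 0.0375) and was 0.94 to 1.21 higher there. Arhgap25 rose by 0.68 ± 0.16 (adjusted p = 0.0478), and Rnaseh2c, a subunit of ribonuclease H2, by 0.90 ± 0.20 (adjusted p = 0.041). Abcc9, the regulatory subunit of muscle KATP channels, rose by 1.01 ± 0.23 (adjusted p = 0.0411), but its other kept probe went the other way and its change was 0.18 to 0.50 in the brightness settings. The other genes that rose by this rule (Svil, Ly9, Cklf, Shisa5, H2bc9, Papola, Tfb2m, Synj2bp, Myo7a, Ufd1 and 4933434E20Rik) had changes of 0.70 to 0.94. With brightness as a covariate over the ischemic arrays, these were 0.21 (H2bc9) to 0.71 (Shisa5). H2bc9 (0.21 to 0.35), Papola (0.35 to 0.53), Ufd1 (0.28 to 0.50), Cklf (0.46 to 0.49) and Synj2bp (0.38 to 0.45) were smaller in all 3 settings. So were Svil (0.60 to 0.75), Ly9 (0.62 to 0.76), Tfb2m (0.52 to 0.64) and 4933434E20Rik (0.36 to 0.47). Svil was detected on only 2 of the 4 scramble arrays. Svil, Tfb2m and 4933434E20Rik each had 3 kept probes, of which only 1 besides the probe read had the same sign.

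Of 27 published miR-210 targets tested, 0 were called higher and 1 was called lower by limma, beside 1.09% of all genes called. At an unadjusted p of 0.05, 2 were higher and 4 lower, and the median log2 change was 0.03, against 0.01 for all genes. The gene called was Stmn1, which encodes stathmin, a protein that destabilizes microtubules. It was at 4.86, 4.67, 4.57 and 4.95 on anti-miR-210 arrays, against 5.45, 5.58, 5.59 and 5.43 on scramble arrays. All 8 values were low on the scale, the groups did not overlap, and Stmn1 fell by 0.75 ± 0.13 (limma adjusted p = 0.0124). The change was -0.61 to -0.60 in the brightness settings, with no call.

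Iscu, the iron-sulfur cluster scaffold, was at 11.51, 11.16, 11.25 and 10.94 with anti-miR-210, against 11.27, 11.31, 11.03 and 10.83 with scramble. The groups overlapped fully, and the change was 0.11 ± 0.15 (limma adjusted p = 0.806). Cox10, a heme A synthesis enzyme needed for cytochrome oxidase, was at 9.67, 9.18, 9.41 and 9.16 with anti-miR-210, against 9.17, 9.22, 8.78 and 8.86 with scramble (0.35 ± 0.15, adjusted p = 0.249). Sdhd, a membrane subunit of complex II, had a difference of -0.39 ± 0.26 (adjusted p = 0.476). Ptpn1, a phosphatase that acts on the insulin receptor, was at 6.27, 6.08, 6.01 and 6.35 with anti-miR-210, against 6.44, 6.72, 7.11 and 6.90 with scramble. Its groups did not overlap, and it missed the threshold (-0.62 ± 0.16, adjusted p = 0.0608).

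The cell cycle transcription factor E2f3 had a difference of 0.29 ± 0.13 (limma adjusted p = 0.294), with its other kept probe of the opposite sign. The difference was 0.08 ± 0.19 for the respiratory chain subunit Ndufa4 (adjusted p = 0.898) and 0.09 ± 0.30 for the FGF receptor-like protein Fgfrl1 (adjusted p = 0.932). Efna3, Gpd1l and Casp8ap2 were on the array but did not pass the detection filter, with a best probe detected on at most 1 array. Of 26 hypoxia response genes tested, 0 were called (3 higher and 2 lower at an unadjusted p of 0.05, median -0.06). Vegfa, the main angiogenic growth factor, was at 9.26, 9.07, 8.39 and 8.73 with anti-miR-210, against 8.94, 9.53, 9.07 and 9.43 with scramble (-0.38 ± 0.19, adjusted p = 0.323). The other kept probe of Vegfa had the opposite sign. Egln3, a prolyl hydroxylase that hypoxia induces, was at 8.54, 7.98, 7.86 and 7.85 with anti-miR-210, against 8.77, 8.85, 8.66 and 8.84 with scramble, without overlap and without a call (-0.72 ± 0.27, adjusted p = 0.18).

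Among the listed genes of mitochondrial respiration, the number of calls was near the share of all genes called (1.09%). Of 34 complex I genes 0 were called (6 higher and 4 lower at an unadjusted p of 0.05, median 0.19), and of 37 genes of complexes II to V, 1 was called lower (median 0.06). That gene was Uqcrb, a subunit of complex III, at 6.88, 6.49, 6.06 and 7.63 on anti-miR-210 arrays, against 7.81, 7.38, 8.36 and 8.83 on scramble arrays. The groups overlapped, and scramble arrays 3 and 4, the dimmest, were the highest. Uqcrb fell by 1.33 ± 0.28 (limma adjusted p = 0.0375), and the change was -0.03 with brightness as a covariate over the ischemic arrays. Both medians had the other sign in the 3 brightness settings, at -0.09, -0.22 and -0.14 for complex I and -0.22, -0.23 and -0.21 for complexes II to V. MT-ND1, a complex I subunit, and Ndufaf2, a complex I assembly factor, are outside these lists and were called lower (-0.67 each). The smallest change over the brightness settings was 43.8% of that size for MT-ND1 and 81.6% for Ndufaf2.

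Of 71 mitochondrial ribosome genes, 1 was called lower and 8 were lower at an unadjusted p of 0.05, against 2 higher, while the median was 0.08. The median was -0.14, -0.20 and -0.16 in the brightness settings. The called gene, Mrps18c, was at 9.30, 8.57, 8.88 and 9.15 with anti-miR-210, against 10.01, 9.63, 10.00 and 9.83 with scramble (-0.89 ± 0.15, limma adjusted p = 0.0124). Its groups did not overlap, and the change was -0.77, -0.50 and -0.60 in the brightness settings. Mrps7 (-0.56 ± 0.14, adjusted p = 0.0585, with its other kept probe of the opposite sign) and Mrps6 (-0.78 ± 0.19, adjusted p = 0.06) missed the threshold. The ATP synthase subunit Atp5pb (0.85 ± 0.27, adjusted p = 0.133) and the mitochondrial peroxidase Prdx3 (0.84 ± 0.25, adjusted p = 0.101) were not called, and with brightness as a covariate over the ischemic arrays their changes were -0.16 and -0.06. The lists for the citric acid cycle (22 genes), fatty acid oxidation (28), glycolysis (23) and fast (30) and slow (16) fibres had 0 calls each. At an unadjusted p of 0.05 their counts were 1, 2, 4, 6 and 0 higher and 2, 2, 1, 1 and 0 lower. The citric acid cycle median of 0.23 became -0.18, -0.22 and -0.15 in the brightness settings.

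Inflammatory genes moved in both directions. In whole muscle, fewer cells of a type and less RNA per cell cannot be told apart. Of 33 monocyte and macrophage genes, 2 were called higher and 0 lower, beside 0.239% of all genes called higher, and the list's median was 0.51. At an unadjusted p of 0.05, 13 were higher and 1 was lower, against 7.33% and 8.6% of all genes. The mean level of the list was 8.35 to 9.04 on anti-miR-210 arrays and 8.06 to 8.66 on scramble arrays, which overlapped. Its median change was 0.23, 0.06 and 0.09 in the 3 brightness settings.

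The called macrophage genes were C1qa and Itgam. C1qa, a chain of complement C1q, was at 6.52, 7.11, 7.27 and 6.27 on anti-miR-210 arrays, against 5.46, 6.27, 5.78 and 4.79 on scramble arrays. Scramble array 2 reached the lowest anti-miR-210 array, and scramble array 4, the dimmest, was the lowest of all. C1qa rose by 1.22 ± 0.29 (limma adjusted p = 0.0468), and the change was 0.19 with brightness as a covariate over the ischemic arrays. Itgam, the myeloid integrin CD11b, was at 4.71, 5.12, 5.37 and 4.92 with anti-miR-210, against 4.25, 4.44, 4.43 and 4.52 with scramble. It was detected on all anti-miR-210 arrays and on 0 scramble arrays, so it was at least 1.39-fold higher with anti-miR-210, a bound set against the dimmest detected signal of each scramble array (adjusted p = 0.0411). Its log2 change of 0.62 was 0.43 to 0.51 in the brightness settings. Fcgr1, an Fc receptor of monocytes, was not called (1.00 ± 0.26, adjusted p = 0.0695), and its change was 1.27 to 1.41 in the brightness settings. Of the macrophage markers, Cd68 had a log2 difference of 1.08 (adjusted p = 0.154), Lyz2 of 1.00 (adjusted p = 0.288), Csf1r of 0.49 (adjusted p = 0.447) and Adgre1 of -0.13 (adjusted p = 0.888).

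Of 27 cytokine and chemokine genes, 1 was called lower. Cxcl2, a chemokine that attracts neutrophils, was at 5.68, 4.97, 4.21 and 6.54 on anti-miR-210 arrays, against 7.58, 6.05, 7.07 and 7.29 on scramble arrays (-1.65 ± 0.36, limma adjusted p = 0.0375). The groups overlapped, with anti-miR-210 array 4 above scramble array 2. The related chemokine Cxcl1 was at 8.15, 7.98, 7.21 and 9.26 with anti-miR-210, against 9.76, 9.57, 9.17 and 10.86 with scramble, and was not called (-1.69 ± 0.44, adjusted p = 0.0716). Ccl2, which attracts monocytes, had a positive difference without overlap and without a call (0.61 ± 0.16, adjusted p = 0.0669). With brightness as a covariate over the ischemic arrays the changes were -0.40, -0.65 and 0.18. The list had 4 genes higher and 7 lower at an unadjusted p of 0.05.

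Of 12 neutrophil genes 0 were called, with 0 higher and 1 lower at an unadjusted p of 0.05 and a median of -0.36. Prtn3, a neutrophil granule protease outside this list, was called lower (-0.61), and as little as 28.1% of its change remained in the brightness settings. Csf3r, the receptor for granulocyte colony-stimulating factor, was at 6.85, 6.32, 5.97 and 7.97 with anti-miR-210, against 7.96, 7.35, 8.22 and 9.34 with scramble (-1.44 ± 0.37, limma adjusted p = 0.0664). Array 4 was the highest of each group, and the change was 0.20 with brightness as a covariate over the ischemic arrays. Among 12 lymphocyte genes, Prf1, which encodes the pore-forming protein perforin, was the 1 called. It was at 9.77, 9.32, 7.53 and 11.20 with anti-miR-210, against 11.66, 11.10, 11.87 and 12.55 with scramble (-2.34 ± 0.48, adjusted p = 0.0361). The groups overlapped, with anti-miR-210 array 4 above scramble array 2, and the change was -0.51 with brightness as a covariate over the ischemic arrays. The lymphocyte marker Cd3e was at 4.34 to 5.21 with anti-miR-210 and 4.19 to 4.69 with scramble (0.20, adjusted p = 0.71).

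Interferon genes lay mostly on 1 side. Of 26 tested, 24 had a positive change, 1 was called higher and 6 were higher at an unadjusted p of 0.05, with 0 lower and a median of 0.40. Over all genes tested, 7481 of 14646 changes were positive, 0.239% were called higher and 7.33% were higher at that p. The list's mean level was 7.25, 7.17, 6.72 and 7.12 on anti-miR-210 arrays, against 6.44, 7, 6.67 and 6.76 on scramble arrays, which overlapped. All genes of the list were read on the same 8 arrays, so the 24 positive changes are not separate observations. Irf9, the DNA-binding part of the ISGF3 complex, was at 6.88, 7.09, 6.46 and 6.92 on anti-miR-210 arrays, against 6.26, 6.20, 5.89 and 6.50 on scramble arrays. Only anti-miR-210 array 3 reached into the scramble range. Irf9 rose by 0.63 ± 0.15 (limma adjusted p = 0.0471) and was 0.67 to 0.73 higher in the brightness settings, with no call. Ifi35 (0.75 ± 0.27, adjusted p = 0.175) was not called. The list's median was 0.48, 0.30 and 0.37 in the brightness settings. The 2 chains of the interferon gamma receptor, outside that list, were called in opposite directions. Ifngr1 rose by 0.78 ± 0.19 (adjusted p = 0.0473), and its change was 0.39, 0.27 and 0.38 in the brightness settings. Ifngr2 was called lower, with a log2 change of -1.81, of which as little as 31.5% remained in those settings.

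Of 37 fibroblast and matrix genes 0 were called. At an unadjusted p of 0.05, 11 were higher and 0 lower, against 7.33% and 8.6% of all genes. The median was 0.38, and 0.59, 0.53 and 0.48 in the brightness settings. The list's mean level was 10.13, 10.06, 9.12 and 9.39 on anti-miR-210 arrays, against 9.12, 9.38, 9.29 and 9.45 on scramble arrays. The groups thus overlapped, and only anti-miR-210 arrays 1 and 2 were above all scramble arrays. Fn1, which encodes fibronectin, was at 10.03, 9.66, 9.09 and 7.66 on anti-miR-210 arrays, against 7.75, 7.74, 6.71 and 7.86 on scramble arrays. Arrays 1 to 3 with anti-miR-210 were above all scramble arrays and array 4 was among them (1.59 ± 0.42, limma adjusted p = 0.0709). Col14a1 showed the same array below its group, at 6.89, 7.37, 6.54 and 4.99 with anti-miR-210, against 4.77, 6.01, 5.02 and 5.45 with scramble (1.14 ± 0.38, adjusted p = 0.139). Its difference was 0.83, 0.43 and 0.55 in the brightness settings. Col12a1 had a difference of 1.03 ± 0.30 (adjusted p = 0.102), which was 1.47 to 1.76 there.

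Of 37 endothelial and angiogenesis genes 0 were called, with 1 higher and 5 lower at an unadjusted p of 0.05 and a median of -0.30. Thrombomodulin, Thbd, had a difference of -1.03 ± 0.36 (limma adjusted p = 0.155). The transcription factor Fli1 was detected on all 4 anti-miR-210 arrays but on only 1 scramble array, and was not called (adjusted p = 0.0675). The list's median was -0.13, 0.09 and -0.02 in the brightness settings. The endothelial markers Pecam1 (-0.46, adjusted p = 0.443), Cdh5 (-0.11, 0.93) and Kdr (-0.32, 0.374) were not called.

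**Figure D4:**
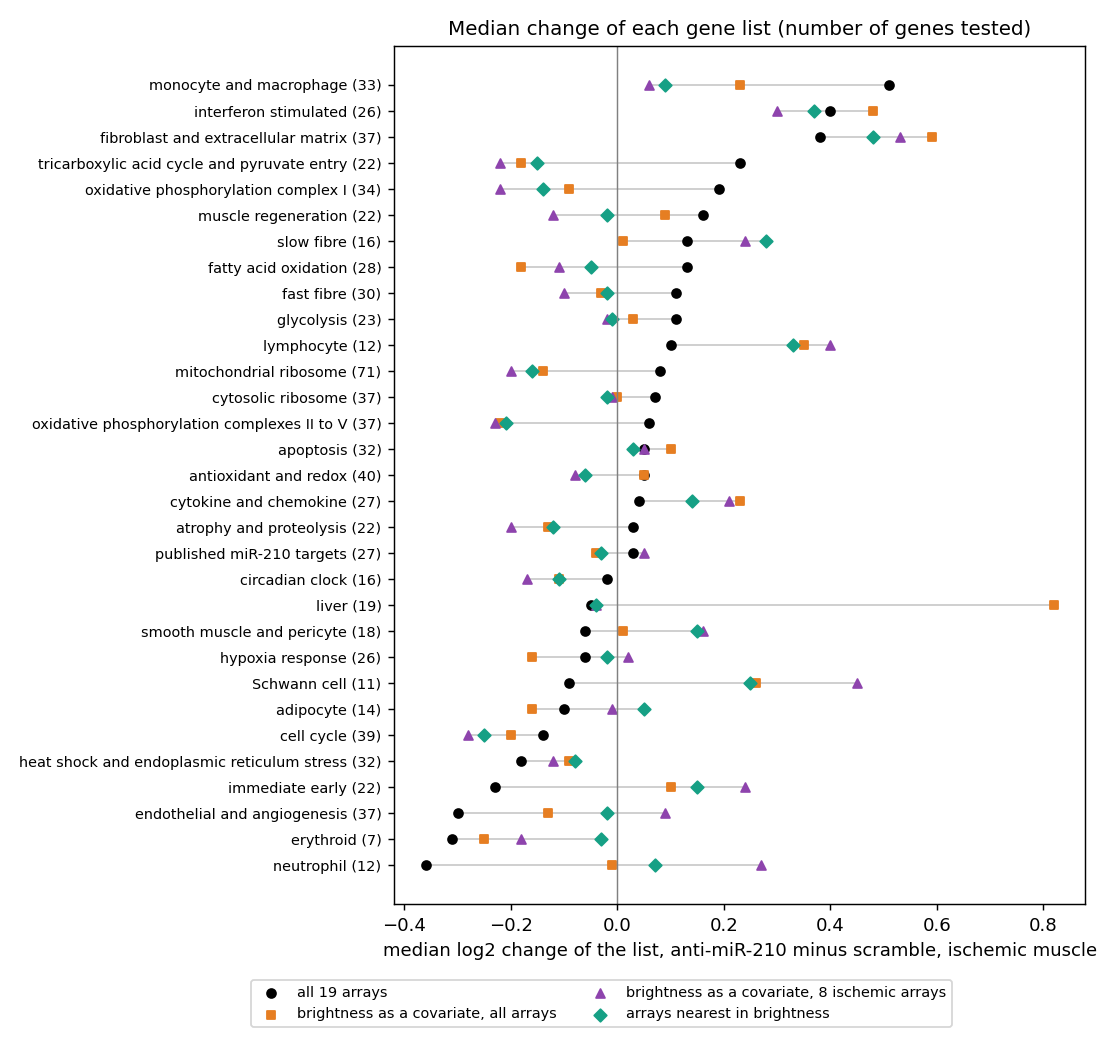
Median log2 change, anti-miR-210 minus scramble in ischemic muscle (horizontal axis), of each gene list with the number of genes tested in brackets, in the same 4 settings. Monocyte and macrophage genes are at 0.51 in the fit of all arrays and at 0.06 to 0.23 in the brightness settings, whereas matrix genes are at 0.38 and at 0.48 to 0.59. The mean levels of both lists overlap between the groups.

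Stress genes and immediate early genes had negative medians. Of 32 heat shock and endoplasmic reticulum stress genes, 1, Hspe1, was called lower, and 7 were lower and 2 higher at an unadjusted p of 0.05 (median -0.18). Of 22 immediate early genes 0 were called, with 5 lower and 1 higher at that p (median -0.23). Egr1, a transcription factor that injury induces within minutes, was at 10.06, 10.04, 8.80 and 9.24 with anti-miR-210, against 11.01, 10.81, 10.75 and 11.51 with scramble, without overlap and without a call (-1.48 ± 0.51, limma adjusted p = 0.153). The median of the immediate early list was positive in the brightness settings (0.10, 0.24 and 0.15).

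Of 39 cell cycle genes, Nusap1, a spindle protein, was the 1 called. It was at 7.47, 7.23, 7.22 and 7.61 on anti-miR-210 arrays, against 7.99, 7.97, 8.29 and 7.93 on scramble arrays, without overlap (-0.66 ± 0.13, limma adjusted p = 0.026), and the change was -0.55 to -0.43 in the brightness settings. Pcna, the replication clamp, was near the detection floor and did not pass (-0.52 ± 0.15, adjusted p = 0.0988), and Kif23, a motor of cytokinesis, had a positive difference without a call (1.12 ± 0.29, adjusted p = 0.0716), with both other kept probes of the opposite sign. The list's median was -0.14 and lay between -0.28 and -0.20 in the brightness settings.

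Of 32 apoptosis genes 1, Tnfrsf10b, was called, with 3 higher and 3 lower at an unadjusted p of 0.05. Of 22 muscle regeneration genes 0 were called or past an unadjusted p of 0.05. Myh8, the neonatal myosin of regenerating fibres, was at 13.08, 7.91, 7.70 and 6.14 on anti-miR-210 arrays, against 7.45, 7.10, 6.46 and 6.42 on scramble arrays. A single anti-miR-210 array carried its difference (1.86 ± 0.96, limma adjusted p = 0.354). Ckm did not overlap between the groups and was not called (0.65 ± 0.17, adjusted p = 0.0773). The other lists (antioxidant, atrophy, cytosolic ribosome, circadian clock, erythroid, adipocyte, Schwann cell and liver) had 0 calls by limma, and at most 5 of their genes in either direction were past an unadjusted p of 0.05. Of 18 smooth muscle genes, Abcc9 was the 1 called.

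In non-ischemic muscle, anti-miR-210 against scramble gave 3 called genes (0.0205%) and 947 at an unadjusted p of 0.05 (6.47%, both directions together). Of the 124 genes lower in ischemic muscle, 86 had the same sign there and 5 passed an unadjusted p of 0.05 in that direction. Of the 35 higher genes, 16 had the same sign and 2 passed. The share of all genes in each direction was not counted, so whether these counts exceed background was not tested. The median non-ischemic change was -0.093 for the lower and -0.003 for the higher genes, against -0.02 for all genes. The difference between the changes in ischemic and non-ischemic muscle was past an unadjusted p of 0.05 for 112 of the 124 lower and 30 of the 35 higher genes, against 8.21% of all genes. After adjustment it was called for 3 genes, Card14, Sftpd and Trmt6, of which Card14 and Sftpd were near the detection floor in non-ischemic muscle. These shares rest partly on the same ischemic values that chose the genes.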

How the data were processed

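Total RNA was extracted with Trizol, cleaned on columns and labelled as biotinylated cRNA, per the labels' protocols. The authors deposited, for 45281 probes on 19 Illumina bead arrays, an average bead intensity that was neither normalized nor background-subtracted, as checked on the values, and a detection p-value per probe, per the file headers. They also deposited a value table, which holds quantile-normalized intensities, and it was used as an alternative. Of the exporting software nothing was stated. Every per-sample column had a label.

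Intensities were background-corrected from the detection p-values, quantile-normalized over all arrays and taken to log2 with neqc (offset 16) in limma 3.58.1 under R 4.3.3. Kept were the 21083 probes detected (p under 0.05) on at least 3 arrays, and each gene was read by its kept probe with the highest mean (14646 genes). A mean per group was fitted over all 19 arrays, with eBayes and Benjamini-Hochberg adjustment over all genes. Brightness is the mean deposited intensity of an array. Of the probe names, 27400 were current symbols and 8300 were updated from older ones in RefSeq's table for GRCm38.p6. A further 9541 were kept as filed, and 40 were dates. No slide or batch is labelled. The number of arrays, 4 in each group, limits the precision, and a gene below the floor of 4.4 to 4.65 has only a bound. The fit was tested on simulated data with 200 changed genes. Figures were drawn with matplotlib in Python.

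The members, gene lists and tests were chosen with earlier results of these data known. Genes were named by a rule: the highest and lowest changes among called genes without overlap (up to 20 each way), up to 3 genes with the smallest p of each list, and a fixed set of miR-210 and hypoxia genes. Of these, names that are no gene symbol are not printed. Ifngr2, MT-ND1, Ndufaf2 and Prtn3 are outside this rule and were added after their values were seen. Replicate numbers are shared by the groups, but arrays with the same number did not deviate together (correlations of -0.007, 0.159, -0.287 and 0.304), so they do not pair the samples. No pair of arrays held identical values. Alternatives were other normalizations, filters and array sets, a brightness covariate, array weights, a replicate block and leaving out each array.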

Additional observations from a re-analysis of the deposited data

Results flagged for a closer look

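In 7 of the 172 groups of 4 arrays checked (86 genes in each of both ischemic groups, 4.07%), 1 array lay far from the other 3, where chance gives about 1 in 20. Anti-miR-210 array 4 was the distant one for Ly9 (6.85, the others from 7.38), Mrps6 (8.54, the others up to 7.96) and the clock gene Dbp (8.5, the others from 9.58). Anti-miR-210 array 3 stood apart for the complex I subunit Ndufa2 (11.87, the others up to 11.58). Anti-miR-210 array 2 stood apart for Hmox1, the heme-degrading enzyme, at 10.03 where the others were at most 7.43. Scramble array 1 was low for Ptges3 (7.66, the others from 7.95), and scramble array 3 was low for Fn1 (6.71, the others from 7.74).

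The change with anti-miR-210 differed between ischemic and non-ischemic muscle for 3 genes by limma's interaction contrast. Its value was -1.31 for Card14 (adjusted p = 0.00743), -2.22 for Sftpd (0.0171) and -1.41 for Trmt6 (0.0171), a subunit of a tRNA methyltransferase. In non-ischemic muscle Card14 averaged 4.32 with anti-miR-210 and 4.33 with scramble, and Sftpd 4.37 and 4.19. These levels are near the detection floor of 4.4 to 4.65 on the ischemic arrays. A fall there could hardly show, so for these genes the contrast mostly repeats the ischemic difference. Trmt6 was at 5.22, 4.85, 4.77 and 5.07 on anti-miR-210 ischemic arrays, against 5.68, 5.87, 5.66 and 6.28 on scramble ischemic arrays. In non-ischemic muscle the order was turned, at 5.51 to 5.82 with anti-miR-210 and 4.92 to 5.39 with scramble.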

How the results depend on the processing

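The count of 159 called genes moved by over 1.5 times under most alternatives. It was 1 in the fit of the 8 ischemic arrays, also when they were normalized alone, 67 without the untreated arrays, 1 with brightness as a covariate over all arrays and 0 over the ischemic arrays. Scaling to the median of all probes shifted the median of all genes by 0.594 and called 6998 (6950 higher and 48 lower), or 3133 (272 higher and 2861 lower) relative to that shift. Scaling on kept probes called 3702 (937 higher and 2765 lower), cyclic loess 90 (34 higher and 56 lower), no filter 60 and array weights 566. Leaving out 1 array gave 14 to 1182. The replicate block over the 8 arrays called 0 genes in limma (1765 at an unadjusted p of 0.05), and the numbers do not pair the arrays. Chosen after seeing the data, leaving out the dimmest pair gave 10 and the arrays nearest in brightness 9. The 787 genes without overlap became 3206 and 2606 under the 2 median scalings, 1350 without the filter and 521 among probes detected on all 8 arrays. The 3 interaction calls became 0 with the covariate (926 at an unadjusted p of 0.05), 4730, 2165 and 647 under the median scalings. The brightness difference was 6.15 for the median intensity and 4.41 percentage points for probes detected.

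Of the 40 called genes named by the rule, 0 changed sign under any alternative relative to the median of all genes. Of the genes not called, some did. With brightness as a covariate over the ischemic arrays, Csf3r was 0.2, Atp5pb -0.16, Prdx3 -0.06, Birc2 0.01 and Thbd 0.2, and Atp5pb was 0 between the arrays nearest in brightness. Under median scaling Bnip3l was 0.03 and Vegfa 0.05. Hmox1 was -0.33 and -0.68 with the covariate, -0.48 between the nearest arrays and -0.46 to 0.56 without 1 array (lowest without anti-miR-210 array 2). Iscu was -0.06, -0.12, -0.07 and -0.06 in the brightness settings. Ndufa4 was -0.32 and -0.48 with the covariate, -0.03 with cyclic loess, -0.13 with array weights, -0.24 and -0.37 in the sets chosen by brightness, and -0.12 to 0.2 without 1 array (-0.01 and -0.04 without scramble arrays 3 and 4). Fgfrl1 was -0.05 with array weights and -0.24 to 0.35 without 1 array (-0.1 without scramble array 4). The cause of these changes was not tested.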

Other observations

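Embigin, Emb, a cell surface glycoprotein that accompanies a lactate transporter, split the scramble arrays. It was singled out after its values were seen. Its log2 level was 8.78, 8.35, 8.05 and 8.18 on anti-miR-210 ischemic arrays, against 4.34, 4.29, 9.52 and 10.01 on scramble ischemic arrays. Scramble arrays 1 and 2 were at the detection floor, while arrays 3 and 4, the dimmest, were the highest of all 8. Non-ischemic muscle was at 4.57 to 4.8 with anti-miR-210 and 4.39 to 5.19 with scramble. In the fit of all arrays Emb was not called (1.3 ± 0.93, limma adjusted p = 0.524).

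Chil3, a chitinase-like protein close to Chil4, showed a like split among the scramble arrays. It was at 8.14, 8.38, 8.59 and 7.44 on anti-miR-210 arrays, against 6.5, 6.48, 8.26 and 8.62 on scramble arrays (0.67 ± 0.38, limma adjusted p = 0.404). Chil4, by contrast, was at 5.35 to 6.06 on all scramble arrays. Probes of such similar genes can share signal, which was not tested.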
